A study of Drosophila melanogaster with 12 samples.

Results

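The cuticle protein families were described across antennal tissue of Drosophila melanogaster. Members were the genes whose symbol begins with Cpr and a digit, Lcp, Pcp, Ccp84A, Edg or Twdl, a rule that used no expression value. It gave 124 of the 15682 genes counted, which were 70 Cpr, 26 Twdl, 17 Lcp, 7 Ccp84A and 3 Edg genes and Pcp. mRNA was sequenced from 4 groups of 3 libraries each: control (w1118) adult antennae, amos mutant (amos3) adult antennae, control antennal discs and amos mutant antennal discs. The question was how the transcriptome of the developing and mature antenna differs without amos, a proneural gene that specifies the sensory lineages of the odorant receptor (Or) olfactory subsystem. Adult antennae of the mutant lack the sensilla of that subsystem, so genotype and tissue composition changed together in the adult groups. Adults were 0 to 4 h old, each adult library came from about 300 antennae, and each disc library came from 50 antennal discs cut by hand from the eye disc of third-instar larvae. Every group pooled males and females and was raised at 22 °C. No source says whether both stocks share a genetic background, or whether libraries of a group came from separate crosses, so p-values measure the spread between these libraries only.

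Insect cuticle is a layered matrix of chitin and protein that epidermal cells secrete at their apical surface, and it is replaced at each moult. Most members (Cpr, Lcp, Pcp, Ccp84A and the genes Edg78E and Edg84A) encode secreted proteins with the Rebers and Riddiford consensus, a sequence that binds chitin. Tweedle (Twdl) proteins are a separate family of secreted cuticle proteins without that consensus, known from dominant mutations that change body shape. Lcp1 to Lcp4 are larval cuticle proteins, Pcp is a pupal cuticle protein encoded within an intron of Gart, and the Edg genes were named for their dependence on ecdysone in imaginal discs. In the antenna the cuticle also forms the shafts of the olfactory sensilla. The disc is the larval primordium of the antenna, and its cells make adult cuticle only later, in the pupa.

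Reads assigned to genes ranged from 25150198 to 25721392 in control adults, from 36396746 to 50252338 in amos adults, from 26796503 to 27661261 in control discs and from 39247300 to 43984887 in amos discs. All amos libraries were therefore deeper than all control libraries, and depth cannot be told apart from genotype. Levels are given in CPM (reads of a gene per 1000000 reads on genes) for comparisons of a gene between libraries, and in FPKM (CPM per kilobase of exon) for comparisons between genes. A group whose libraries all held 3 counts or fewer was treated as at the floor, and fold changes against it were set as lower bounds against 3 counts per library. amos itself had at most 3 counts in any library and could not check the labels. Orco, the odorant co-receptor, had a mean of 2929 CPM in control and 89.4 CPM in amos adults, and Ir8a, a co-receptor of the other subsystem, had 135 and 382 CPM.

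Members took a small share of reads and that share fell on few genes. Together they held 0.121% to 0.141% of reads in control adults and 0.105% to 0.151% in amos adults. In discs the share was 0.0216% to 0.0250% in controls and 0.0233% to 0.0375% in amos libraries. Of the 124 members, 85 passed 3 counts in at least 1 library, which were 57 Cpr, 12 Lcp, 10 Twdl, 3 Ccp84A and 2 Edg genes and Pcp. The other 39 never passed 3 counts, and 21 of these had 0 counts in every library. By group, 48 members passed 3 counts in control adults, 57 in amos adults, 58 in control discs and 50 in amos discs.

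**Figure D1:**
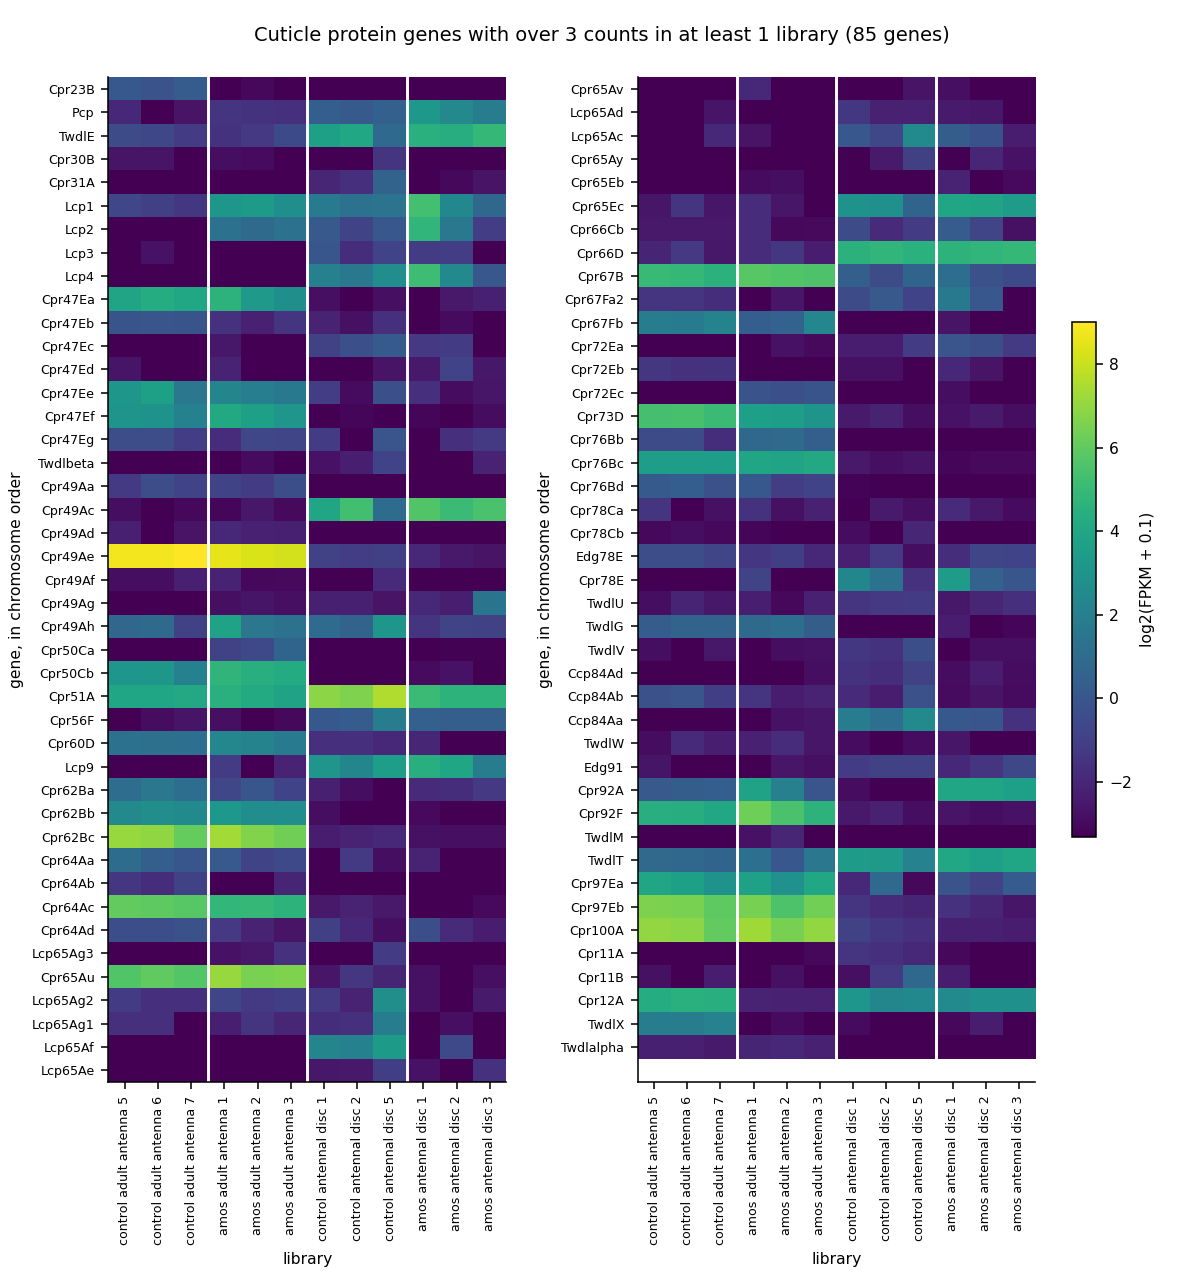
Expression of the 85 members with over 3 counts in at least 1 library, as log2(FPKM + 0.1), with 1 column per library and genes in chromosome order. Cpr49Ae is the brightest row in all 6 adult libraries, and Cpr51A, Cpr49Ac and Cpr66D are bright in the disc libraries.

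The heat map of levels shows largely separate sets of members in adult antennae and discs. In control adults Cpr49Ae had the highest level, at 467 ± 43.3 FPKM (SD, n = 3), and 41.5% of all member reads. Below it came Cpr62Bc at 112 ± 38.3, Cpr100A at 104 ± 32.5 and Cpr97Eb at 83.2 ± 18.8 FPKM, which did not differ beyond their spread. Cpr64Ac had 61.5 ± 4.88, Cpr65Au 55.8 ± 6.96, Cpr73D 39.0 ± 4.58 and Cpr67B 28.7 ± 4.32 FPKM. All of these 8 are Cpr genes with the chitin-binding consensus. The amos adults had the same leading gene, Cpr49Ae at 328 ± 48.0 FPKM, followed by Cpr100A at 123 ± 32.3, Cpr62Bc at 114 ± 41.5 and Cpr65Au at 111 ± 24.8 FPKM, whose ranges ran into each other.

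Disc levels were led by other genes. In control discs Cpr51A reached 134 ± 45.3 FPKM and took 37.9% of member reads. Cpr66D, whose protein has been described in the corneal lens of the eye, followed at 25.3 ± 2.52 FPKM, and Cpr49Ac at 18.5 ± 18.4 FPKM had an SD as large as its mean. The Tweedle genes TwdlE and TwdlT were next at 10.3 ± 7.53 and 8.46 ± 3.64 FPKM. Lcp9 had 8.41 ± 3.42 FPKM, within the spread of both. In amos discs Cpr49Ac led at 43.1 ± 8.02 FPKM, ahead of Cpr51A at 27.8 ± 4.88, Cpr66D at 27.2 ± 2.27 and TwdlE at 24.4 ± 4.97 FPKM, and the last 3 overlapped. Levels over 10 FPKM were reached by 14 members in control adults, 15 in amos adults, 4 in control discs and 11 in amos discs.

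Members lie in the genome in tandem groups, and some of these groups mixed adult and disc genes. With a gap of at most 20 kb allowed between neighbours they formed 47 clusters, of which 15 held at least 3 members and 90 of the 124 genes. The 8 genes Cpr49Aa to Cpr49Ah (assembly BDGP6.54, chromosome arm 2R, 12376626 to 12415170) include the leading adult gene Cpr49Ae and the disc gene Cpr49Ac. Cpr49Ae had 522, 528 and 614 CPM in control adults and 0.506, 0.448 and 0.475 CPM in control discs. Cpr49Ac went the other way, with 0.0779, 0 and 0.0398 CPM in the adults and 32.6, 81.0 and 4.09 CPM in the discs. The 18 genes from Lcp65Ag3 to Cpr65Az (3L, 6130386 to 6161589) likewise hold Cpr65Au, read mainly in adults, and Lcp65Af, read only in discs. Of the 12 Tweedle genes from TwdlM to TwdlD (3R, 26619118 to 26641054), TwdlM alone passed 3 counts, in 1 amos adult library. In other clusters every tested gene was called in the same direction between control adults and control discs, such as 4 of 4 tested of Cpr47Ea to Cpr47Eg, 3 of 3 of Cpr62Ba to Cpr62Bc and 3 of 3 of Cpr64Aa to Cpr64Ad, all higher in adults, and 3 of 3 of Lcp1 to Lcp4, all higher in discs. Over all genes tested there 86.6% were called, 43.2% higher and 43.4% lower in adults. Of all tested Cpr genes 26 of 32 were higher in adults, and of all tested Lcp genes 5 of 5 were lower. Whether clusters differed from their families was not tested.

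Disc libraries of the same group differed in these families. Control disc 5 stood apart from control discs 1 and 2 in stage-dependent genes. Hr3, an ecdysone-induced nuclear receptor, had 92.6, 146 and 0.365 CPM in control discs 1, 2 and 5, and ImpE2, an ecdysone-inducible disc gene, had 2700, 3575 and 142 CPM. The summed muscle markers were also highest there, at 802 CPM against 113 and 93.7 CPM, and chinmo had 135 CPM against 14.0 and 19.5 CPM. Of 32 members that averaged 10 counts or more in control discs, 9 were over 2 times and 6 under 0.5 times their level in each of the other control discs. Lcp65Ag2 was 28.3 times and Lcp65Ag1 17.2 times the mean of the other control discs, while Cpr49Ac stood at 0.0720 and TwdlE at 0.122 times that mean. Within the amos discs library 1 was over 2 times each of the others for 8 of 26 members, led by Lcp2 at 16.7, Lcp1 at 11.6 and Lcp4 at 11.2 times the mean of the rest. How many of all genes passed the same cuts was not counted, so these counts do not show whether the spread was particular to the families. Over all genes kept by the filter, log2 CPM of control disc 5 correlated at 0.974 and 0.971 with control discs 1 and 2. Those 2 libraries correlated at 0.988 with each other. Summed fat body markers were highest in control disc 2, at 4996 CPM against 56.9 and 466 CPM in control discs 1 and 5 and 251 to 400 CPM in amos discs. The part of developmental timing or other tissue in these differences was not tested.

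**Figure D2:**
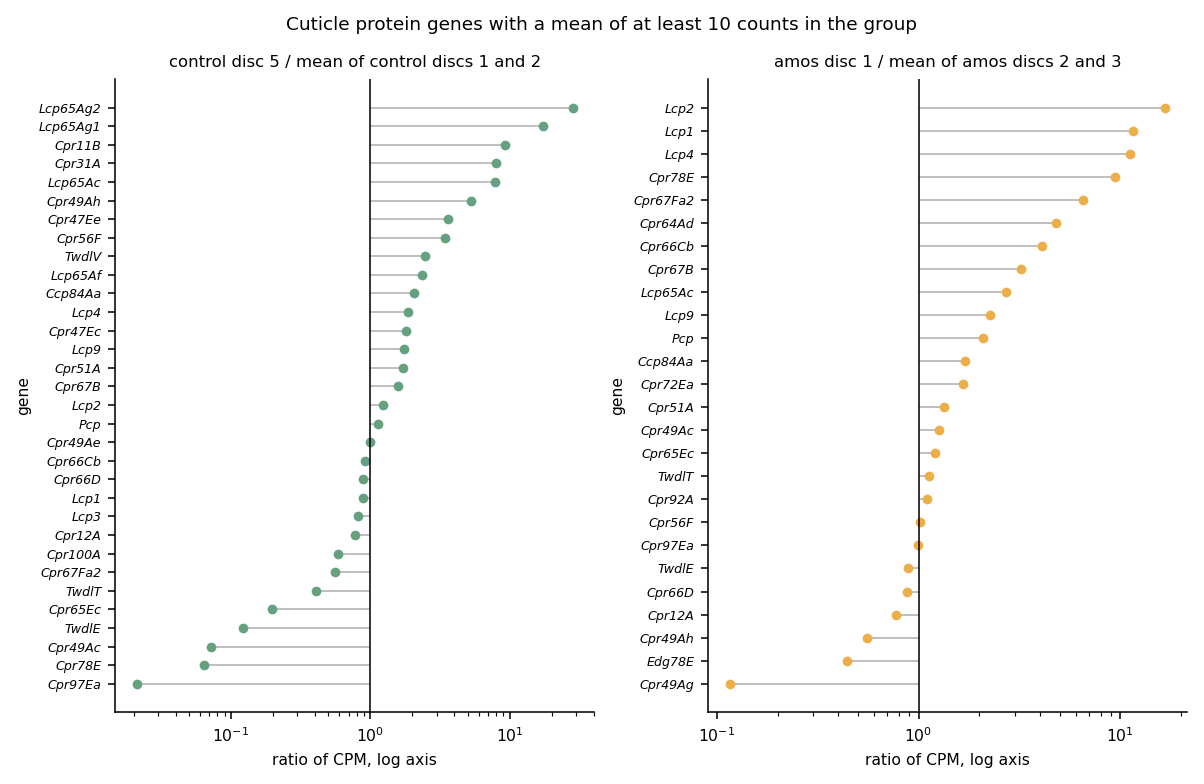
Ratio of CPM (log axis) in control disc 5 to the mean of control discs 1 and 2 (left) and in amos disc 1 to the mean of amos discs 2 and 3 (right), for members that averaged 10 counts or more over the group. Lcp65Ag2 at 28.3 and Cpr97Ea at 0.0211 bound the left panel, and Lcp2, Lcp1 and Lcp4 lead the right panel.

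The first comparison set amos adult antennae against control adult antennae. Among members averaging 50 counts or more in the higher group and with no overlap, TwdlX, Cpr12A, Cpr62Ba and Cpr73D fell most, and Cpr50Ca, Lcp2, Lcp1 and Cpr49Ah rose most. The leading adult gene Cpr49Ae fell by 0.54 on the log2 scale, and other abundant members (Cpr62Bc, Cpr100A and Cpr97Eb) did not pass the test. Of 124 members 38 passed the filter on low counts, and 14 of these were higher and 9 lower at an adjusted p under 0.05 (edgeR quasi-likelihood test with Benjamini-Hochberg adjustment over all genes tested). That is 60.5% of the members tested, while over all 9724 genes tested 47% were called, 22.7% higher and 24.4% lower. In 22 of the 23 called members the control and amos libraries did not overlap, which was so for 99.1% of all called genes. In bulk tissue, fewer cells of a type and less RNA per cell cannot be told apart, and this holds for each genotype difference given here.

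The falls included genes that were nearly silent in the mutant. TwdlX (X, 16731091 to 16732630), a Tweedle gene, had 4.79, 4.94 and 5.88 CPM in control adults and 0, 0.0398 and 0 CPM in amos adults. The mutant libraries were all at the floor, and the level was at least 63.1-fold lower (adjusted p = 9.54e-06). Cpr12A (X, 13543643 to 13544907) had 17.3, 19.5 and 18.0 CPM in controls and 0.110, 0.0995 and 0.105 CPM in the mutant, a log2 fold change of -7.43 ± 0.16 (SE, adjusted p = 2.67e-07). Both genes were tightly grouped within genotype and far apart between genotypes. Among neighbours of TwdlX, Twdlalpha had 0.119 to 0.156 CPM in controls and 0.157 to 0.219 CPM in the mutant and was too low to be tested.

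Other falls were partial and touched abundant members. Cpr73D had 124, 128 and 102 CPM in control and 37.4, 36.2 and 25.0 CPM in amos adults (log2 fold change -1.87 ± 0.15, adjusted p = 4.87e-05). Its exons overlap those of Ogdh on the opposite strand, which had 1044 to 1064 CPM in controls and 855 to 1039 CPM in the mutant, and whether the counting used strand is not given in the sources used here. Cpr64Ac had 58.8, 55.2 and 50.1 CPM in control and 25.8, 26.7 and 22.1 CPM in amos adults (-1.16 ± 0.09, adjusted p = 4.16e-05). Cpr62Ba, at 1.95, 2.80 and 2.03 CPM in control and 0.495, 0.856 and 0.445 CPM in the mutant, changed by -1.91 ± 0.32 on the log2 scale (adjusted p = 0.0019). For these genes too every control library lay above every amos library. Cpr49Ae had 522, 528 and 614 CPM against 452, 372 and 342 CPM (-0.54 ± 0.11, adjusted p = 0.00589). When libraries were scaled on 79 ribosomal protein genes, which moves the median of all genes by 0.25 on the log2 scale, the call on Cpr49Ae was lost (adjusted p = 0.0896). The remaining lower members, Cpr23B, Cpr64Ad and Cpr47Eb, averaged under 50 counts and are named after their values were seen, and of these Cpr23B had 0.855 to 1.19 CPM in controls and was at the floor in the mutant, at least 12.4-fold lower.

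Among the rises, larval cuticle genes appeared in the adult mutant. Lcp1 (2R, 8430115 to 8431243) had 0.545, 0.428 and 0.318 CPM in control and 9.75, 11.0 and 7.36 CPM in amos adults, a log2 fold change of 4.40 ± 0.24 (adjusted p = 6.65e-06). Lcp2, its neighbour, had 0 counts in all control adults and 2.25, 1.67 and 2.23 CPM in amos adults, at least 17.2-fold higher (adjusted p = 0.000167). Lcp4 of the same cluster had 0 counts in all 6 adult libraries, and Lcp3 had 1 count in 1 of them. Of the 5 genes of this cluster, counting the pseudogene Lcp1Psi with 0 counts everywhere, Lcp1 and Lcp2 alone were read in the mutant adults. Cpr50Ca also had 0 counts in control adults and 1.46, 1.91 and 5.00 CPM in the mutant, at least 23.4-fold higher (adjusted p = 0.00252). The adjacent Cpr50Cb had 7.71, 8.05 and 3.62 CPM in control and 23.02, 18.4 and 16.8 CPM in amos adults (1.56 ± 0.27, adjusted p = 0.00214). Cpr72Ec, another protein described in the corneal lens, averaged under 50 counts and is named after its values were seen. It had 0 counts in control adults and 1.13, 1.01 and 1.21 CPM in the mutant, at least 9.35-fold higher (adjusted p = 0.00035).

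More abundant members rose by less. Cpr65Au had 26.6, 33.5 and 28.0 CPM in control and 73.5, 49.5 and 52.8 CPM in amos adults (0.97 ± 0.15, adjusted p = 0.0015). Cpr67B had 32.9, 29.8 and 24.3 CPM against 56.7, 50.6 and 48.1 CPM (0.81 ± 0.11, adjusted p = 0.000812). Neither pair of groups overlapped. Cpr92F had 39.5, 38.0 and 30.4 CPM against 148, 81.4 and 46.1 CPM, so the mutant libraries differed by more among themselves than the controls did (1.31 ± 0.36, adjusted p = 0.0177). Cpr76Bb, Cpr47Ef, Cpr60D and Cpr76Bc were higher by 1.71, 0.93, 0.91 and 0.38 on the log2 scale. Cpr49Ah had 1.56, 1.83 and 0.437 CPM against 13.5, 2.89 and 2.36 CPM (2.24 ± 0.76, adjusted p = 0.0438), and Cpr92A had 1.09, 1.28 and 1.35 CPM against 15.5, 4.48 and 0.969 CPM (2.44 ± 0.86, adjusted p = 0.0483). Amos adult 1 was highest for both, and Cpr92A was the called member whose groups overlapped.

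**Figure D3:**
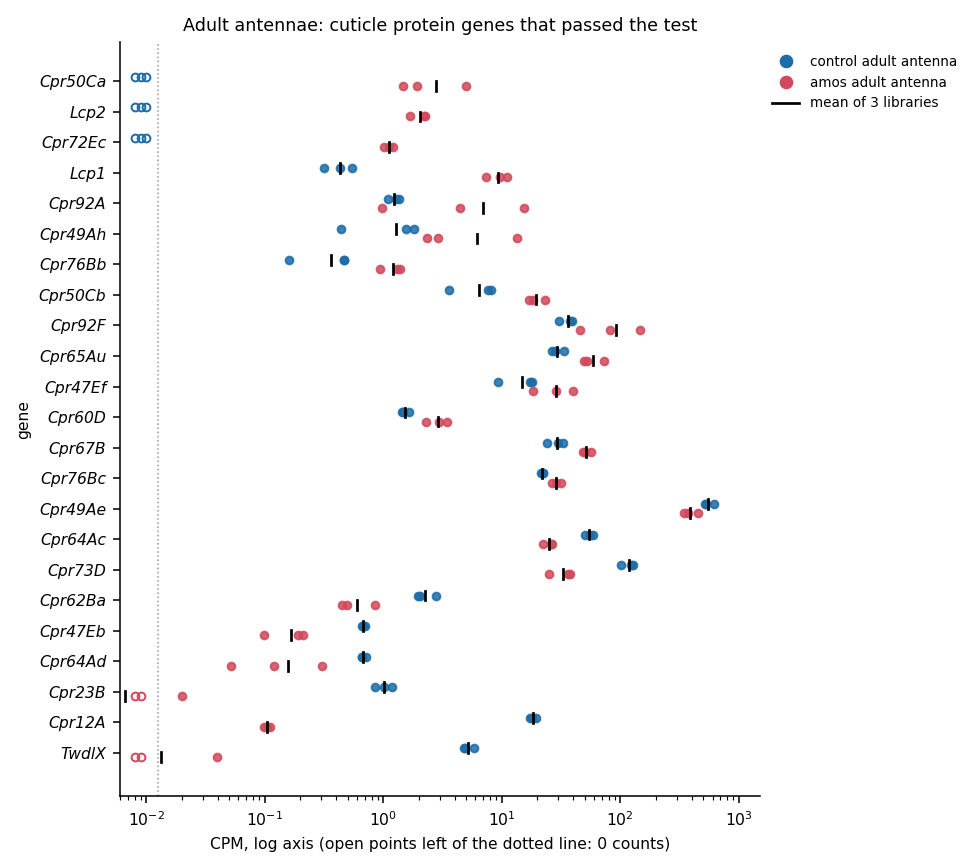
CPM (log axis) in the 3 control and 3 amos adult libraries of the 23 members that passed the test, ordered by log2 fold change, with bars at the group means and open points for 0 counts. Cpr50Ca, Lcp2 and Cpr72Ec are at 0 counts in every control library, and TwdlX and Cpr12A lie far below their control levels in every amos library.

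The number of members called higher ranged from 9 to 15 when each adult library was left out in turn. It was lowest without control adult 6, where Cpr47Ef, Cpr49Ah, Cpr76Bc, Cpr92A and Cpr92F lost their calls, and highest without amos adult 3. Cpr49Ah was not called without control adult 5, 6 or 7 or amos adult 1 (adjusted p 0.0804 to 0.129), and Cpr92A without any of the same 4 or amos adult 2 (0.0661 to 0.129). Cpr47Ef was not called without any of those 5 libraries (0.0515 to 0.105), Cpr92F without control adult 6 or 7 (0.0553 and 0.0703), and Cpr76Bc without control adult 6 (0.0555). The remaining calls on higher members, and all 9 calls on lower members, were kept without any single library. In 1 fit over all 12 libraries Cpr60D (0.141), Cpr67B (0.05001), Cpr64Ad (0.0750) and Cpr49Ah (0.0541) were not called. Under scaling on ribosomal protein genes 15 members were higher and 8 lower, while over all genes 3567 were higher and 1268 lower.

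Members that did not pass in adults included the most abundant ones after Cpr49Ae. Cpr62Bc had 159, 143 and 77.2 CPM in control and 182, 114 and 91.8 CPM in amos adults (0.00 ± 0.30, adjusted p = 0.994). Cpr100A had 177, 160 and 92.2 CPM against 210, 122 and 177 CPM (0.22 ± 0.26, adjusted p = 0.512). Control adult 7 was the lowest library for both. The ecdysone-dependent gene Edg78E had 0.623, 0.622 and 0.477 CPM against 0.275, 0.378 and 0.157 CPM, and the groups did not overlap, but the adjusted p was 0.056. Edg91 had at most 1 count in the adult libraries apart from 2 counts in amos adult 2, and Edg84A had at most 2 counts in any library. Pcp had 0 to 0.117 CPM in control and 0.157 to 0.192 CPM in amos adults and was not tested there.

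Markers of other tissues differed between the adult groups as well. Summed haemocyte markers were at 33.9 to 39.6 CPM in control and 122 to 137 CPM in amos adults, and muscle markers at 4.67 to 94.1 and 102 to 226 CPM. Most of the haemocyte sum was Pxn, with means of 28.2 CPM in control and 113 CPM in amos adults. Hml and NimC1 overlapped between these groups, while eater had 0.636 to 0.934 CPM in control and 1.93 to 2.28 CPM in amos adults. The chitin deacetylase genes verm and serp, listed as tracheal markers and also counted among the chitin genes, fell, and their sum with trh was at 848 to 885 CPM in control and 425 to 563 CPM in amos adults. The tracheal regulator trh itself had means of 0.104 and 0.117 CPM and was not tested. Neuronal markers were at 1202 to 1267 and 632 to 750 CPM, and fat body markers at 12.9 to 18.2 and 4.09 to 14.8 CPM. Of the markers tested, 2 of 4 for haemocytes and 2 of 5 for muscle were higher in the mutant, and 3 of 3 for neurons and 2 of 6 for fat body were lower. All 5 muscle and all 4 haemocyte markers passed 3 counts in at least 1 library of each group. Their part in the differences between cuticle protein genes was not tested.

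The second comparison set amos discs against control discs, before the antenna makes its adult cuticle. Cpr92A was read in amos discs and was at the floor in control discs, the pupal gene Pcp was higher, and Cpr51A, the leading member of control discs, was lower. Cpr49Ah and Ccp84Aa were also lower. Of 124 members 27 passed the filter, with 2 called higher and 3 lower by edgeR (18.5% of those tested). Over all 8909 genes tested 13.2% were called, 6.57% higher and 6.63% lower. Without adjustment, 10 of the 27 members had a p under 0.05, against 32.8% of all genes tested (37.0% of these members).

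Cpr92A (3R, 19597502 to 19598955) had 0.0362, 0 and 0 CPM in control discs and 17.1, 17.2 and 13.9 CPM in amos discs, at least 143-fold higher (adjusted p = 0.00039). The 3 amos libraries were close together and the control libraries held at most 1 count. Cpr51A (2R, 14512559 to 14515211) had 76.1, 64.8 and 121 CPM in control and 21.8, 16.3 and 16.2 CPM in amos discs (log2 fold change -2.25 ± 0.25, adjusted p = 0.00622). In adult antennae the same gene had 10.2, 9.88 and 11.1 CPM in controls and 14.8, 12.0 and 9.01 CPM in the mutant, which overlapped. The transcribed spans of Cpr51A and CG30197 overlap, and CG30197 had 1.88 to 2.41 CPM in control discs and 4.87 to 6.01 CPM in amos discs. The calls on Cpr92A and Cpr51A held without any single library.

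The other calls in discs were less firm. Pcp had 0.868, 0.746 and 0.913 CPM in control and 6.80, 3.91 and 2.57 CPM in amos discs (2.40 ± 0.41, adjusted p = 0.0181), and it was not called without control disc 1 or 2 or amos disc 1 or 2 (0.0521 to 0.0723). Cpr49Ah had 1.88, 1.42 and 8.72 CPM against 0.255, 0.477 and 0.441 CPM (-3.32 ± 0.81, adjusted p = 0.0445), with control disc 5 highest, and it was not called without control disc 1 or any single amos disc (0.0761 to 0.150). Ccp84Aa, of a cluster of cuticle protein genes within the Antennapedia complex, had 2.78, 1.64 and 4.53 CPM against 0.739, 0.682 and 0.186 CPM (-2.46 ± 0.62, adjusted p = 0.0494), and it was not called without any 1 of the 6 libraries (0.0644 to 0.121). In all 3 genes the groups did not overlap, but how often this held over all called disc genes was not counted. Lcp65Af had 2.49, 2.20 and 5.51 CPM in control and 0, 0.296 and 0 CPM in amos discs, and its adjusted p was 0.0519.

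**Figure D4:**
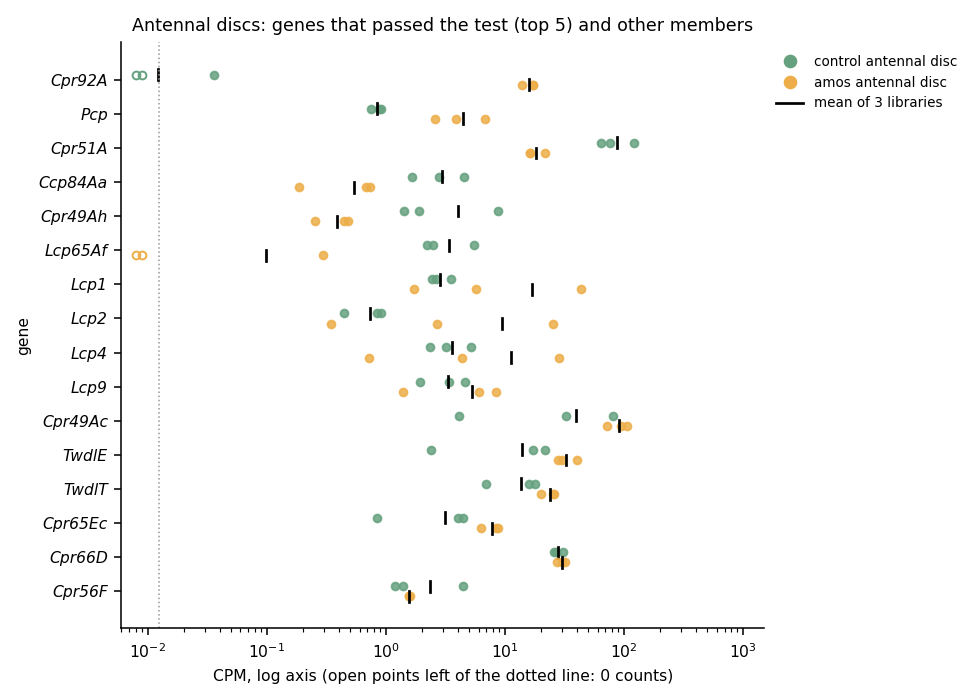
CPM (log axis) in the 3 control and 3 amos disc libraries of the 5 members that passed the test (top) and of 11 other members, with bars at the group means and open points for 0 counts. Cpr92A separates the groups most widely, and Lcp1, Lcp2 and Lcp4 spread over more than 10 times among the amos libraries.

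Several disc genes had higher means in the mutant with no call, and control disc 5 was then the low library. TwdlE had 17.3, 21.7 and 2.37 CPM in control discs 1, 2 and 5 and 30.3, 27.7 and 40.4 CPM in amos discs (1.27 ± 0.68, adjusted p = 0.245). Cpr65Ec had 4.48, 4.07 and 0.840 CPM against 8.82, 8.39 and 6.24 CPM (1.33 ± 0.57, adjusted p = 0.16). TwdlT had 17.9, 16.0 and 6.94 CPM against 25.7, 20.2 and 25.5 CPM (0.82 ± 0.34, adjusted p = 0.148). For these 3 the groups did not overlap, but how often this held over all disc genes was not counted. Without control disc 5, TwdlE, Cpr65Ec and Cpr72Ea were called, which gave 5 higher members, and Ccp84Aa was lost. Cpr49Ac had 32.6, 81.0 and 4.09 CPM against 106, 72.7 and 95.0 CPM, which overlapped.

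The larval cuticle genes Lcp1, Lcp2 and Lcp4 varied widely among amos discs. Lcp1 had 3.51, 2.46 and 2.63 CPM in control and 43.2, 5.73 and 1.72 CPM in amos discs (2.55 ± 1.09, adjusted p = 0.162). Lcp2 had 0.904, 0.448 and 0.840 CPM against 25.6, 2.71 and 0.348 CPM, and Lcp4 had 3.22, 2.35 and 5.22 CPM against 28.6, 4.39 and 0.719 CPM. In each of these genes amos disc 1 was highest and amos disc 3 was below every control. Lcp3 had 0.149 to 0.651 CPM in control and 0 to 0.273 CPM in amos discs. Lcp9 had 3.36, 1.94 and 4.64 CPM against 8.41, 6.05 and 1.39 CPM (adjusted p = 0.498). Among the 11 Lcp genes at 65A, Lcp65Ae, Lcp65Ad and Lcp65Ag3 stayed at or below 0.183 CPM in every library. Lcp65Ag1, Lcp65Ag2 and Lcp65Ac had 1.90, 3.61 and 2.88 CPM in control disc 5 and at most 0.470 CPM in the other control discs. In the same cluster Lcp65Ab1, Lcp65Ab2, Lcp65Aa and Lcp65APsi had 0 counts everywhere. Since near-identical copies lose reads that map to more than 1 place, the levels of Lcp65Ab1 and Lcp65Ab2 are uncertain. Whether the Lcp65Ag genes lost reads in this way was not tested.

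Cpr66D did not separate the genotypes, with 26.8, 31.0 and 25.8 CPM in control and 27.3, 30.3 and 32.3 CPM in amos discs (0.12 ± 0.11, adjusted p = 0.469). The summed eye disc markers were at 248 to 351 CPM in control and 126 to 185 CPM in amos discs, with 2 of 6 lower (ey and toy), and muscle markers were at 93.7 to 802 and 50.8 to 65.3 CPM, with 0 of 4 called by edgeR and 4 at an unadjusted p under 0.05. The part of eye tissue in the disc levels of members was not tested.

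The third comparison set adult antennae against discs within each genotype. Most tested members differed: Cpr49Ae, Cpr62Bc, Cpr100A and Cpr64Ac were among those higher in adult antennae, and Cpr49Ac, Cpr66D, Lcp4 and Lcp9 among those higher in discs. In controls 45 members were tested, and 29 were higher and 14 lower in adults (edgeR). Over all 9770 genes tested 86.6% were called, 43.2% higher and 43.4% lower in adults. In the mutant 43 members were tested, with 26 higher and 12 lower in adults, against 85.6% of 9985 genes called, 43.8% higher and 41.8% lower. Of 38 members tested in both genotypes, 22 were called higher in adults in both (57.9%, against 38.9% of all 9550 such genes) and 9 higher in discs in both (23.7%, against 39.1%). Cpr12A was called in opposite directions (1 of 38, against 0.963% of all such genes). Scaling on ribosomal protein genes moved the median of all genes by 1.44 in controls and 1.68 in the mutant on the log2 scale, and gave 30 members higher and 13 lower in controls and 28 and 10 in the mutant, while all genes split into 6823 and 1582 and into 7578 and 1215. Under that scaling TwdlT was not called in either genotype (adjusted p = 0.152 in controls and 0.0522 in the mutant).

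Of the 29 adult-high members in controls, 19 stood in discs below 1% of their adult mean, and so did 17 of the 26 in the mutant. Cpr12A, Cpr64Ad and Edg78E, at 29.8%, 28.6% and 25.8% in controls, were the farthest from this. Cpr49Ae rose from a mean of 0.476 CPM in control discs to 554 CPM in control adults, a log2 fold change of 10.44 ± 0.13 (adjusted p = 5.6e-08), and from 0.121 to 389 CPM in the mutant. Cpr62Bc rose from 0.147 to 127 CPM in controls, and in the mutant it was at least 1693-fold higher in adults. Cpr64Ac was at least 489-fold higher in control adults and at least 325-fold higher in amos adults. Disc values this low were close to those of some antennal genes but not of others. Obp19d, an odorant-binding protein gene of the adult antenna, stood in control discs at 0.0841% of its adult level and Orco at 0.0664%. Of the other antennal genes read, Ir8a, Ir25a, Obp83a, lush and a5 stood at 0.0590% to 0.122%, sv at 1.86% and nompC at 8.04%. Of the adult-high members, 6 in controls and 8 in the mutant were below 0.1% of their adult mean in discs, and whether these disc counts came from the discs was not tested. Shares below 1% and 0.1% were not counted over all adult-high genes, so they are not shown to be particular to these families.

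Further adult-high members had smaller or bounded differences. Cpr47Ef was at least 133-fold, Cpr47Ea at least 125-fold and Cpr50Cb at least 57.7-fold higher in control adults than in control discs. Exons of Cpr47Ea overlap those of the odorant receptor gene Or47a on the opposite strand. Cpr73D was 481-fold higher in control adults, with 0.110 to 0.373 CPM in control discs. TwdlG and TwdlX were the 2 Tweedle genes called higher in control adults than in control discs. TwdlG had 2.41, 3.03 and 3.10 CPM in control adults and 0 counts in control discs, at least 25.4-fold higher. Cpr67B, in contrast, kept 0.634 to 1.50 CPM in control discs and was 25.6-fold higher in adults. Edg78E was higher in control adults (2.19 ± 0.62, adjusted p = 0.0149), a call lost without control adult 5 or 6 (0.0519 and 0.0530), and in the mutant it did not pass (adjusted p = 0.821).

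Disc-high members included all 5 Lcp genes that were tested in controls. Lcp4 was at least 30.1-fold, Lcp65Af at least 28.5-fold, Lcp9 at least 27.8-fold and Lcp2 at least 6.12-fold higher in control discs than in control adults, all 4 with 0 counts in control adults. Lcp1 was 6.66-fold higher in control discs. In the mutant Lcp4 was at least 136-fold and Lcp9 83.5-fold higher in discs, while Lcp1 (adjusted p = 0.636) and Lcp2 (adjusted p = 0.182) did not pass and the groups overlapped. Cpr49Ac was at least 329-fold higher in discs in controls and 1145-fold in the mutant, and Cpr66D was 143-fold and 140-fold higher. TwdlE was 20.0-fold higher in control discs and 64.2-fold higher in amos discs. Pcp was at least 7.06-fold higher in control discs and 25.1-fold higher in amos discs.

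**Figure D5:**
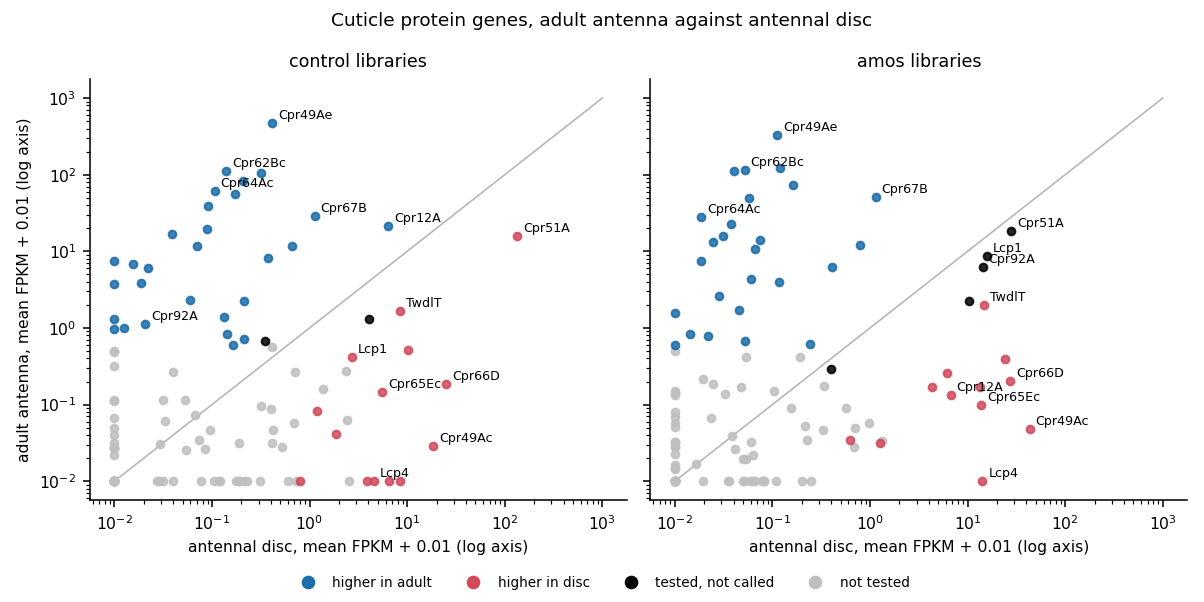
Mean FPKM + 0.01 of each member in adult antennae against discs (log axes), for control (left) and amos (right) libraries, coloured by the call of the stage test. Cpr49Ae lies highest above the diagonal in both panels, and Cpr12A and Cpr92A change place between the panels.

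The fourth comparison tested whether the difference between amos and control differed between adult antennae and discs, as an interaction term. Of 54 members tested, 8 passed: Cpr51A, Cpr49Ah, Cpr49Ae and Cpr65Au had a higher amos to control ratio in adults than in discs, and Cpr12A, TwdlX, Cpr62Ba and Cpr92A a lower one. Over all 10319 genes tested 22.3% were called, 14.2% higher and 8.06% lower. Scaling on ribosomal protein genes gave 7 members higher and 4 lower, while over all genes 2302 were higher and 329 lower. Cpr12A was the clearest case: it fell in amos adults, whereas in discs it had 7.48, 4.29 and 4.56 CPM in control and 4.82, 6.18 and 6.28 CPM in amos libraries (0.10 ± 0.28), and the effects differed by -7.45 on the log2 scale (adjusted p = 1.06e-06). Cpr51A was lower in amos discs and overlapped in adults, a difference of 2.49 (adjusted p = 0.000441).

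For TwdlX, Cpr62Ba, Cpr49Ae and Cpr65Au the disc side rested on at most 14 counts in any disc library, and Cpr49Ae stood in discs at 0.0859% of its adult mean in controls and 0.0312% in the mutant. Without amos disc 2 the calls on Cpr49Ae (adjusted p = 0.0594), Cpr65Au (0.0557) and TwdlX (0.0594) were lost, and 2 members were higher. Cpr49Ae was also lost without amos disc 3 (0.0602), and Cpr65Au without control disc 2 (0.135) or control disc 5 (0.0643). Without amos disc 1 there were 8 higher members, and without control disc 2 there were 7 lower. Cpr12A and Cpr51A kept their calls without any single library. Of 12 members tested in both genotype comparisons, 2 were called in both, against 7.23% of all 8359 such genes. Cpr92A was called higher in amos tissue at both stages, and Cpr49Ah was called higher in amos adults and lower in amos discs. The adult call on Cpr92A, whose adult groups overlapped, and both calls on Cpr49Ah were each lost when certain single libraries were left out.

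Other genes of cuticle formation were read beside the families. Of 20 matched cuticle protein genes outside the symbol rule, 16 were tested in adults and 3 rose and 2 fell in the mutant (median log2 fold change 0.20, against 0.00 over all genes). Acp65Aa, an adult cuticle protein gene, had 1.71, 2.18 and 0.755 CPM in control and 58.1, 14.0 and 5.61 CPM in amos adults (log2 fold change 4.01). obst-E, which encodes a chitin-binding protein of the larval body wall, had 111, 112 and 102 CPM in control and 29.8, 28.1 and 26.8 CPM in amos adults (-1.96). In discs 14 were tested and edgeR called 0, with 4 at an unadjusted p under 0.05 (median -0.05). Of 18 genes of chitin synthesis and organization, 17 were tested at each stage, with 4 higher and 4 lower in amos adults (median 0.10) and 2 higher and 5 lower in amos discs (median 0.11). The chitin synthase gene kkv had 370, 382 and 335 CPM in control discs and 252, 301 and 258 CPM in amos discs (-0.41).

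Tanning enzymes and ecdysone response genes were counted in the same way. Among 12 tested tanning genes 5 were higher and 1 lower in amos adults (median 0.43), led by t, which encodes the hydrolase tan, at 62.2, 49.3 and 59.0 CPM in control and 209, 235 and 218 CPM in the mutant. In discs 10 were tested, with 1 called lower and 0 higher, and 4 at an unadjusted p under 0.05 (median 0.37). Of 17 ecdysone response genes tested in adults 3 were higher and 2 lower (median -0.18), and of 16 in discs 1 was lower and 0 higher, with 5 at an unadjusted p under 0.05 (median 0.20). The lower one, ftz-f1, which encodes a nuclear receptor known to regulate Edg84A, had 26.6, 25.9 and 85.2 CPM in control and 4.84, 7.00 and 2.18 CPM in amos discs.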

How the data were processed

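Poly(A) RNA was sequenced as stranded libraries, and the deposited counts are whole reads per gene for each of the 12 libraries. Per the labels the authors used cutadapt 1.2.1, TopHat2 2.0.9, HTSeq 0.5.4p3 and the genome build BDGP5, whereas the methods of the study name Skewer and another FlyBase release, so the build of the counts is uncertain. HTSeq's lines for reads on no gene (17.9% to 33.1% of all) were left out. Members and lists were chosen with earlier results of these data known. Gene names, exon lengths and positions came from the BDGP6.54 annotation of Ensembl release 115, and 15002 identifiers had a symbol.

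Counts were tested with edgeR 4.0.16 in R 4.3.3 (filterByExpr, TMM, quasi-likelihood F test, Benjamini-Hochberg adjustment over all genes tested, adjusted p under 0.05). Each pairwise comparison was fitted on its 6 libraries, and the interaction on all 12. The SE is the log2 fold change divided by the root of F. FPKM used the union of exons. Genes named with values were members that passed the test without overlap and averaged 50 counts or more where they were higher (largest changes first), those passing the interaction, the 8 highest in FPKM per group, and every Lcp, Pcp and Edg gene. Alternatives were DESeq2 1.42.0, other scalings and filters, each library left out, 1 fit over all libraries, a fold threshold of 2, a replicate block and, chosen after seeing the data, removal of a gene length trend. The scripts were tested on simulated data. Depth limits low members most, since 3 counts are 0.0597 to 0.119 CPM.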

Additional observations from a re-analysis of the deposited data

Results flagged for a closer look

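The effect of amos on 8 members differed between adult antennae and discs by the interaction test of edgeR. The adjusted p was 1.06e-06 for Cpr12A, 0.000441 for Cpr51A, 0.00229 for TwdlX, 0.00673 for Cpr62Ba, 0.00758 for Cpr92A, 0.00972 for Cpr49Ah, 0.0123 for Cpr49Ae and 0.0231 for Cpr65Au. For Cpr49Ah the log2 effects were 2.24 in adults and -3.32 in discs. For Cpr62Ba they differed by -4.00, with 3, 1 and 0 counts in control discs and 7, 9 and 13 in amos discs. Cpr65Au differed by 3.21, with 1, 4 and 2 counts in control and 1, 0 and 1 in amos discs. TwdlX had 1, 0 and 0 counts in control and 1, 6 and 0 in amos discs, and Cpr49Ae had 14, 12 and 13 against 8, 4 and 3 counts.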

How the results depend on the processing

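Fold changes were compared for named members already called in the main fit, wherever an alternative still tested the gene. No direction reversed, 1195 fold changes kept their call and 55 lost it. Named members without a call were not compared, and calls on genes dropped by a filter are outside these counts. With at least 10 counts required in every sample, fewer genes were tested, and edgeR called 9 members higher and 4 lower in adults, 1 higher in discs, 3 and 3 between control stages, 3 and 2 between amos stages, and 2 and 0 for the interaction (0 lower also at an unadjusted p under 0.05, of 5 tested). A fold over 2 left 9 higher in adults. One fit over all 12 libraries gave 8 lower in discs, no filter gave 25 lower between control stages, and the interaction had 9 higher with DESeq2. With ribosomal protein scaling the interaction had 7 members higher, while over all genes 2302 were higher and 329 lower. Leaving out each library gave 9 to 15 higher in adults, 1 to 5 higher and 1 to 3 lower in discs, and 2 to 8 higher and 3 to 7 lower for the interaction. Causes other than fewer genes or libraries were not tested. Libraries sharing a replicate number correlated at -0.20 and -0.15 in discs and at 0.02 to 0.11 across amos stages. Those with different numbers ran from -0.39 to 0.27 and from -0.07 to 0.03. So few pairs cannot show whether shared numbers mark paired samples. A replicate block gave 10 higher in discs. Only libraries 1 and 2 of each genotype share a number there, so control disc 5 and amos disc 3 did not inform that estimate. For the interaction, control adults and control discs share number 5 alone, so the block left 1 control library per stage and its calls are not given. Adult groups share no number, so no block could be fitted there.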

Other observations

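Among amos adults, library 1 had the highest level of several members at once. Cpr47Ea had 20.9, 8.28 and 5.74 CPM in amos adults 1, 2 and 3 against 12.3, 16.3 and 13.6 CPM in controls, so its values lay on both sides of the controls. Cpr92F, Cpr92A, Cpr49Ah and Cpr47Ef were highest in the same library, as was Acp65Aa, whereas Cpr50Ca was highest in amos adult 3 at 5.00 CPM.

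Or47a and lectin-28C, which share exon sequence with members on the opposite strand, had different levels between the genotypes. The members opposite them, Cpr47Ea in adults and TwdlE in discs, were not called. Or47a, opposite Cpr47Ea, had 27.1, 24.6 and 25.0 CPM in control adults and 0, 0.179 and 0.0262 CPM in amos adults. lectin-28C, opposite TwdlE, had 9.98, 7.17 and 5.91 CPM in control discs and 37.3, 26.8 and 11.2 CPM in amos discs. Whether reads of these genes were counted on the members was not tested.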
